A study of Mus musculus with 6 samples.

Results

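The genes described here encode the Arp2/3 complex, which nucleates branched actin filaments, and its paralogous subunits. They are 10 of the 52550 gene identifiers in the files: Actr2, Actr3, Actr3b, Arpc2, Arpc4, Arpc1a, Arpc1b, Arpc3, Arpc5 and Arpc5l. The members were listed by name, but the complex was selected on the measured difference of Arpc5 between injured and sham animals in these same libraries. The values of Arpc5 in that comparison are therefore a description and support nothing, and those of the other members come from the same contrast. All 10 members passed the filter on low counts, which left 18795 genes to be tested.

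Hippocampal RNA of male C57BL/6 mice was sequenced 24 h after surgery, by RNA-seq from 3 sham and 3 TBI (traumatic brain injury) animals, with 1 library per mouse. According to the methods the mice were C57B6/J, 8 to 10 weeks old, and received a moderate controlled cortical impact through a craniotomy over the right parietal bone, while the sham mice had the same surgery without the impact. Both groups thus share the anaesthesia and the opened skull, and whether 1 or both hippocampi entered a library is not clear from the methods. The sham libraries are called Sham1 to Sham3 and the injured ones TBI1 to TBI3. Estimated counts summed to 31630936 to 41771872 per library.

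The Arp2/3 complex binds to the side of an existing actin filament and starts a new one at an angle, so that filaments branch. Its actin-related subunits Arp2 and Arp3 act as the seed of the branch, the ARPC subunits hold them together and to the mother filament, and the complex is inactive until a factor of the WASP or WAVE family binds it. In the brain the branched network shapes dendritic spines and growth cones, and in microglia it drives process movement and phagocytosis.

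Libraries differed in tissue markers before any group difference was considered. The summed level of 9 striatal markers was 4850 CPM (counts scaled to a common library total) in TBI1 and 160 to 242 CPM in the other libraries. The sum of 7 cerebellar markers was 1640 CPM in TBI3 and 116 to 221 CPM elsewhere. In Sham2 the 10 oligodendrocyte markers summed to 3080 CPM, against 9020 to 11100 CPM in the other libraries, and the 10 astrocyte markers to 6550 CPM, against 3240 to 3980 CPM. The 10 markers of CA1 and CA3 pyramidal cells, the principal neurons of the hippocampus, summed to 1110 to 1300 CPM in sham and 616 to 993 CPM in TBI, with no overlap between the groups. The pyramidal sum was 682 CPM in TBI1 and 616 CPM in TBI3, the libraries with striatal and cerebellar markers, and 993 CPM in TBI2. Of the pyramidal markers 9 of 10 had a log2 fold change below 0, with a median of -0.85, and of 8 markers of dentate granule cells 6 were below 0, also with a median of -0.85, although their sums overlapped (259 to 469 CPM in sham and 191 to 304 CPM in TBI). None of the 12 marker lists held a gene at 0 in every library, and the part of these differences in the results below was not tested.

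Of the 10 members, 8 matched an entry of the RefSeq promoter table (build GRCm38.p6), and the stretches before the start of Arpc5, Arpc3 and Actr3 are shown because these members had the lowest fold changes of the complex. Each is written 5′ to 3′ on the gene's own strand and ends at the base before the gene's start. Capitals mark the GC box (GGGCGG), the CCAAT box (CCAAT) and the core of an ETS factor site (CCGGAAG) on either strand.
Arpc5, plus strand, chr1:152766352-152766541: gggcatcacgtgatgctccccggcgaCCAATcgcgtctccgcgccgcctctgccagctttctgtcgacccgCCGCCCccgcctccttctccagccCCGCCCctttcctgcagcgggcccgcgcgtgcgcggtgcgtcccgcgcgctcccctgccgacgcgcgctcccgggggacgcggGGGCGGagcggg
Arpc3, plus strand, chr5:122391628-122391877: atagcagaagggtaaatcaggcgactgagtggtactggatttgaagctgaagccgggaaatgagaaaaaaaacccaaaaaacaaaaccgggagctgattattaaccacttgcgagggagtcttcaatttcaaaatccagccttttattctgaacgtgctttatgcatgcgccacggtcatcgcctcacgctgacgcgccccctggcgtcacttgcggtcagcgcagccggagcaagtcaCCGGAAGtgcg
Actr3, minus strand, chr1:125435728-125435977: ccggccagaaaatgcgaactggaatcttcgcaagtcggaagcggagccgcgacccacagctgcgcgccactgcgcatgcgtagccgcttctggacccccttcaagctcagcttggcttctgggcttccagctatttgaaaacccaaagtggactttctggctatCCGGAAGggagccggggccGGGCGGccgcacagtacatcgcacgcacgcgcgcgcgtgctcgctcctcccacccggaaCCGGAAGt

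In the window of 250 bases before the start the promoter of Arpc5 held 3 GC boxes, 1 CCAAT box and no ETS core, with 37 CpG dinucleotides and 74.4% G or C. Arpc3 held 1 ETS core and neither of the other boxes, with 17 CpG and 51.2% G or C, and Actr3 held 2 ETS cores and 1 GC box, with 27 CpG and 64% G or C. Arpc2 was like Arpc5 in holding GC boxes (2) and no ETS core, with 33 CpG and 68.4% G or C. The starts used here are those of the RefSeq table and can differ from the gene starts printed with the loci below. The Arpc2 window, chr1:74236267-74236516, lies after its printed start of 74236084. The windows of Arpc1a and Arpc1b end at 145083868 and 145114255, past their printed starts of 145083830 and 145114215. The median of all promoters in the table was 6 CpG and 52.4% G or C. The ETS core, a motif searched after the sequences had been seen, lay in 5 of the 8 member promoters (Actr2, Actr3, Arpc1a, Arpc3 and Arpc4) and in 6.9% of 32817 promoters of the same length. The GC box lay in 5 of 8 against 32.7%, the CCAAT box in 2 of 8 (Actr2 and Arpc5) against 33.8%, and the CArG box, the motif of serum response factor, in 1 of 8 (Arpc4) against 1.47%. These are matches of letters, and no binding was measured.

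The start of Arpc5 faces that of Rgl1, a guanine nucleotide exchange factor gene on the opposite strand, with 190 bases between the outermost annotated starts. Rgl1 was looked up for this position after its values could be seen. It measured 96.6, 96.6 and 102 CPM in sham and 89.1, 96.3 and 68.4 CPM in TBI, where the highest TBI library was just under the lowest sham. Its log2 fold change was -0.22 with an SE of 0.149 (edgeR adjusted p = 0.982), against -0.77 for Arpc5.

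The actin-related core was somewhat lower on average in TBI, and none of its genes passed the test. Actr2 (ENSMUSG00000020152.7, chr11:20062304-20112913, minus strand) encodes Arp2. Its level was 561, 456 and 518 CPM in the sham libraries 1 to 3 and 470, 465 and 386 CPM in the TBI libraries. The groups overlapped through Sham2, and the log2 fold change was -0.22 (SE 0.133, edgeR adjusted p = 0.982). It was -0.14 without Sham1 or without TBI3.

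Actr3 (ENSMUSG00000026341.16, chr1:125392905-125435727, minus strand) encodes Arp3, the partner of Arp2 in the seed. It measured 234, 184 and 242 CPM in sham and 175, 178 and 147 CPM in TBI. Every TBI library was below every sham library, with Sham2 close to TBI2. Sham averaged 220 ± 31.6 CPM and TBI 167 ± 17.1 CPM (SD, n = 3 each). The log2 fold change was -0.40 (SE 0.149), with an edgeR p of 0.0327 before and 0.982 after adjustment. Of all stretches of 75 bases in its longest coding transcript 34.3% also occur in other genes, mostly in Gm8822, so its reads may have been shared.

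Actr3b (ENSMUSG00000056367.14, chr5:25759997-25850688, plus strand) encodes a paralogue of Arp3. Its values of 137, 88.9 and 132 CPM in sham enclosed those of 117, 114 and 97.5 CPM in TBI. The log2 fold change of -0.12 was smaller than its SE of 0.188, and it ran from -0.0086 without Sham1 to -0.30 without Sham2.

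The scaffold of the complex is made of Arpc2 and Arpc4, which hold Arp2 and Arp3 and contact the mother filament. Arpc2 (ENSMUSG00000006304.14, chr1:74236084-74268209, plus strand) measured 286, 246 and 246 CPM in sham and 244, 237 and 181 CPM in TBI. The TBI libraries were all below sham, but the highest of them reached 0.991 of the lowest sham library, and only TBI3 stood clearly lower. Its log2 fold change was -0.23 (SE 0.149, edgeR adjusted p = 0.982), and it was -0.11 without TBI3 and -0.15 without Sham1.

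Arpc4 (ENSMUSG00000079426.13, chr6:113378115-113390448, plus strand) had 142, 127 and 111 CPM in sham and 93.8, 111 and 108 CPM in TBI. Sham3 and TBI2 met, so the groups overlapped, and the log2 fold change was -0.28 (SE 0.136, edgeR adjusted p = 0.982), or -0.18 without Sham1. Arpc4 shares 283 exonic bases, 12.2% of its length, with Ttll3 on the same strand, whose counts were far lower at 185 to 447 per library.

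Arpc1a and Arpc1b are paralogues that encode the WD-repeat subunit, where activators bind. Arpc1a (ENSMUSG00000029621.14, chr5:145083830-145108761, plus strand) measured 172, 138 and 176 CPM in sham and 191, 167 and 141 CPM in TBI, and the groups overlapped fully. Its log2 fold change was 0.035 (SE 0.159) and turned negative without Sham2 (-0.067) or without TBI1 (-0.076), so that no direction can be given.

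Arpc1b (ENSMUSG00000029622.16, chr5:145114215-145130705, plus strand), which is known for its role in blood cells, was the least abundant and the most variable member. It measured 26.1, 69.4 and 32.9 CPM in sham and 59.7, 41.0 and 22.1 CPM in TBI. The highest library was a sham one and the lowest a TBI one, and the spread within each group far exceeded the difference between the means of 42.8 ± 23.3 and 40.9 ± 18.8 CPM (SD, n = 3 each). Its log2 fold change of -0.065 (SE 0.472) became 0.47 without Sham2 and 0.23 without TBI3.

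The libraries high in Arpc1b were also high in microglial genes. The summed level of 18 markers of microglia and macrophages was 1030 CPM in Sham2 and 1430 CPM in TBI1, the 2 libraries in which Arpc1b was highest. It was 957 CPM in TBI2, 789 CPM in Sham1, 723 CPM in Sham3 and 705 CPM in TBI3, where Arpc1b was lowest. Sham2 also had the highest sums of astrocyte markers and of 10 markers of infiltrating leukocytes, 49.5 CPM against 13 to 42.6 CPM elsewhere, and the part of any of these cells was not tested. Of its stretches of 75 bases 34.4% occur in other genes, mostly Pdap1 on the opposite strand, which shares 931 exonic bases (18.2% of Arpc1b). Pdap1 had 3096 to 5822 counts per library, and the strandedness of the libraries is not given in the sources used here.

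Arpc3 lies beside Arp3 and Arpc5 links Arpc1 and Arp2 to the rest of the complex. Arpc3 (ENSMUSG00000029465.14, chr5:122391878-122414184, plus strand) measured 162, 134 and 129 CPM in sham and 102, 117 and 94.0 CPM in TBI. The highest TBI library was at 0.906 of the lowest sham library, so the groups did not overlap. Sham averaged 142 ± 17.3 CPM and TBI 104 ± 11.8 CPM (SD, n = 3 each). The log2 fold change was -0.44 (SE 0.141), with an edgeR p of 0.0177 before and 0.982 after adjustment.

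Arpc5 (ENSMUSG00000008475.13, chr1:152766542-152775597, plus strand), the gene for which the complex was chosen, measured 257, 194 and 193 CPM in sham and 122, 121 and 136 CPM in TBI. The TBI libraries lay close together, and the highest of them was at 0.705 of the lowest sham library. Sham averaged 215 ± 36.7 CPM and TBI 126 ± 8.45 CPM (SD, n = 3 each). The fitted TBI level was 58.8% of sham, which is -0.77 on the log2 scale (SE 0.148). The value held between -0.61 without Sham1, the highest library, and -0.84 without Sham3, and it was -0.74 without TBI1, -0.83 without TBI3 and -0.83 without Sham2, the libraries with unusual tissue markers. In bulk tissue, fewer cells of a type, less RNA per cell and a different share of other tissue cannot be told apart. The lower pyramidal and dentate marker values in TBI given above lie beside the value of Arpc5. The pyramidal sums were lowest in TBI1 and TBI3, the libraries with striatal and cerebellar markers, and the part of these values was not tested.

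Arpc5l (ENSMUSG00000026755.14, chr2:39005348-39015877, plus strand) encodes the paralogue that can take the place of Arpc5. It was the steadiest member, with 90.6, 80.3 and 86.6 CPM in sham and 94.3, 94.6 and 96.7 CPM in TBI. All TBI libraries were above all sham libraries, opposite to Arpc5, but the difference was small, with a log2 fold change of 0.15 (SE 0.102, edgeR adjusted p = 0.982). Arpc5l, with 2992 to 3851 counts, shares 62 bases (1.38%) with each of Wdr38 on the same strand and Rpl35 on the opposite strand. Rpl35 had 9461 to 11869 counts, and Wdr38 had 794 in Sham3, 639 in TBI3 and 25 to 51 elsewhere.

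**Figure D1:**
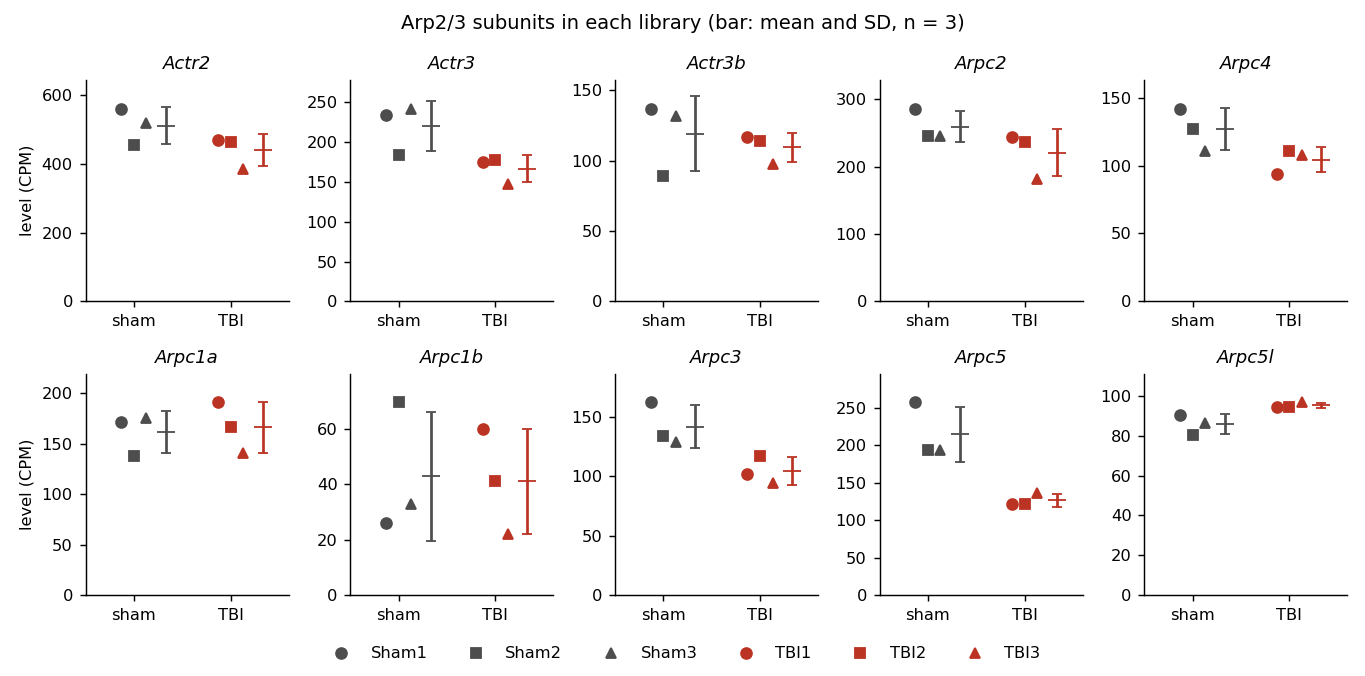
Level of each Arp2/3 subunit in CPM (vertical axes from 0, a scale per gene) in the 3 sham (grey) and 3 TBI (red) libraries, with a symbol per library and the mean and SD beside the points. The TBI points of Arpc5 lie at 121 to 136 CPM, under the sham points at 193 to 257 CPM, while Arpc5l lies slightly higher in TBI and Arpc1b scatters over both groups.

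Of the 10 log2 fold changes 8 were below 0, and 7 of 9 without Arpc5, where 48.6% of all genes were. The median was -0.22, the same without Arpc5, against 0.0091 for all genes tested, and it was -0.13 without TBI3, the library with cerebellar markers. The medians of -0.85 for pyramidal and dentate markers lie beside it, and their part was not tested. In 4 members, Arpc5, Arpc3, Actr3 and Arpc2, every TBI library was below every sham library, as in 5.45% of all genes, and without Arpc5 these were 3 of 9. With upper-quartile factors the count was 2 of 10. In 1 member, Arpc5l, every TBI library was above, as in 4.77% of all genes. An unadjusted edgeR p under 0.05 with a lower level was reached by 3 members (2 of 9 without Arpc5), against 2.13% of all genes, and with a higher level by 0 members, against 2.16%. These counts come from the contrast on which Arpc5 was selected, and nothing is read from them about the complex.

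With thresholds taken from the methods (p under 0.05, adjusted p under 0.1, fold change over 1.5 in either direction) edgeR called 0 of the 10 members, and 0.0% of all 18795 genes, although 806 genes had an unadjusted p under 0.05. DESeq2 with its defaults called 1 member, Arpc5, as lower, along with 0.0914% of 20786 genes. The call of Arpc5 by DESeq2 was lost when Sham1, TBI1, TBI2 or TBI3 was left out.

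**Figure D2:**
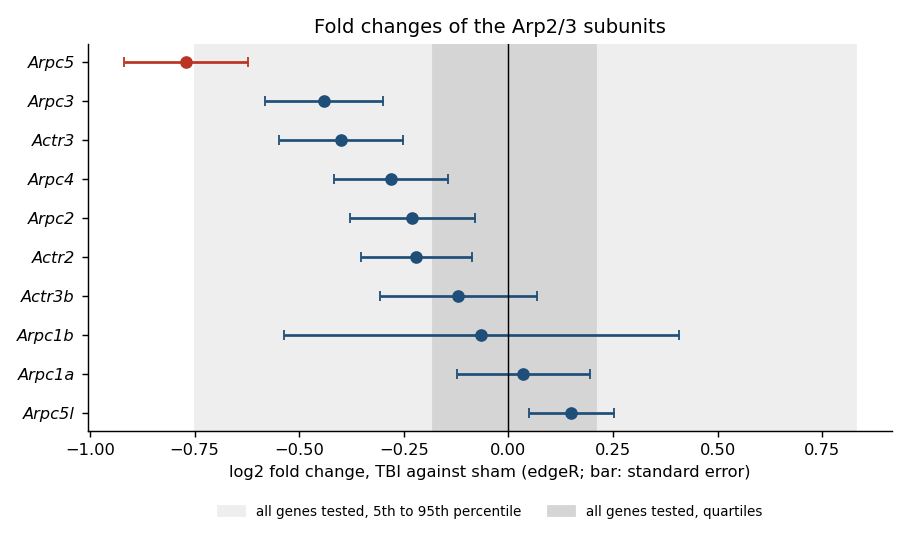
Log2 fold change of TBI against sham from edgeR (horizontal axis) for each member, with its standard error, over grey bands for the quartiles and the 5th to 95th percentile of all genes tested. Arpc5 at -0.77 lies just below the 5th percentile of -0.75, and the next members, Arpc3 at -0.44 and Actr3 at -0.40, lie within the outer band.

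The members did not move alike in each library. Relative to the sham mean of each gene, the median member was at -0.10 in TBI1, -0.13 in TBI2 and -0.46 in TBI3 on the log2 scale, and at 0.14, -0.11 and -0.029 in the sham libraries. TBI3 was the lowest of the 6 libraries for 5 members (Actr2, Actr3, Arpc2, Arpc1b and Arpc3), while Arpc5 was higher there than in TBI1 and TBI2. TBI3 is the library with cerebellar markers. Below their sham mean were 7, 7 and 9 members in the TBI libraries and 1, 8 and 5 in the sham libraries, so Sham2 also ran low.

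Paralogues compete for the same place in the complex, and their balance was described as a share of the level per kilobase of exon. Arpc5 made up 84.9%, 82.7% and 81.5% of the sum of Arpc5 and Arpc5l in sham and 71.8%, 71.7% and 73.5% in TBI. The shares were thus 83.0% ± 1.71 and 72.3% ± 1.04 (SD, n = 3 each) and did not overlap, but they hold the values on which Arpc5 was selected. With the length of the longest coding transcript in place of all exons the shares were 63.4% ± 2.83 and 48.1% ± 1.31, so the level of the share depends on the length used while the TBI libraries remained below sham. Together the pair came to 300.0 ± 40.9 CPM in sham and to 221 ± 9.74 CPM in TBI, a log2 ratio of -0.44.

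In the Arp3 pair the share of Actr3b was 52.7%, 48.0% and 51.1% in sham and 56.1%, 55.1% and 55.9% in TBI. All TBI libraries were higher, with means of 50.6% ± 2.39 and 55.7% ± 0.521. With the longest coding transcript the means were 40.4% ± 2.29 and 45.4% ± 0.523, so which paralogue is the larger depends on the length used. The sequence that Actr3 shares with Gm8822 lies beside this value, and its part was not tested. In the Arpc1 pair the share of Arpc1b was 7.08%, 20.1% and 8.60% in sham and 13.6%, 11% and 7.33% in TBI, again highest in Sham2 and TBI1, and the groups overlapped. Together the Arpc1 genes came to 205 ± 5.57 CPM in sham and to 207 ± 43.8 CPM in TBI.

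**Figure D3:**
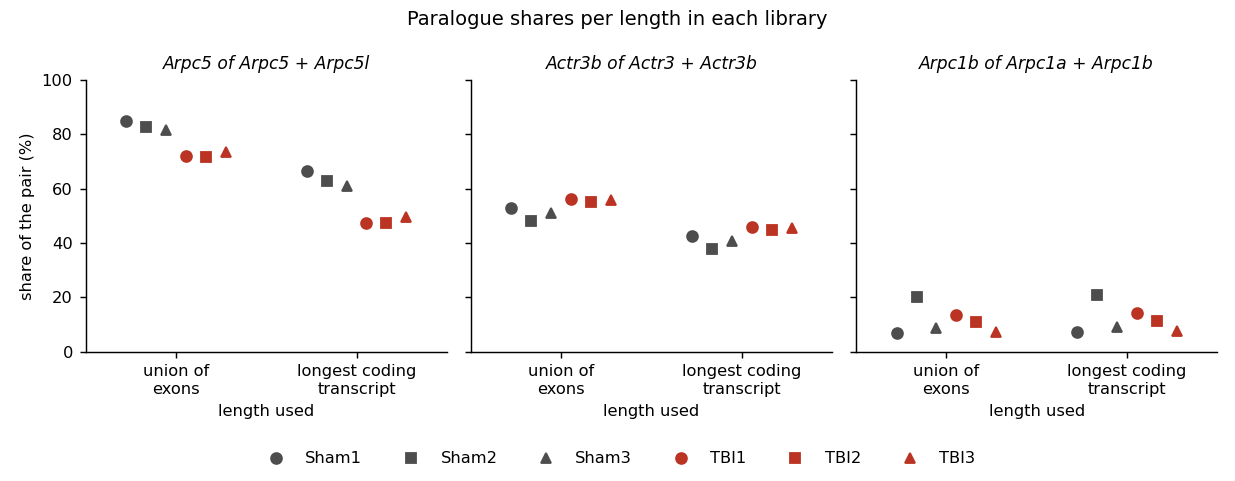
Share of 1 paralogue in the level per kilobase of its pair (vertical axis, percent) in each library, with both gene lengths on the horizontal axis, sham in grey and TBI in red. With all exons Arpc5 averages 83.0% in sham and 72.3% in TBI, Actr3b 50.6% and 55.7%, and Arpc1b is highest in Sham2 at 20.1%.

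Levels can be compared between subunits only per length. Over the 6 libraries the mean level in CPM per kilobase of exon was 118 for Arpc2, 91.5 for Actr2, 74.9 for Arpc5, 63.9 for Arpc1a, 49.7 for Arpc4, 47.2 for Actr3b, 44.6 for Arpc3, 41.7 for Actr3, 20.1 for Arpc5l and 8.19 for Arpc1b. The scaffold subunit Arpc2 was thus the most abundant and Arpc1b the least. In 3 of the 9 steps of this order the upper gene was higher in 6 of 6 libraries: Arpc2 over Actr2, Actr3 over Arpc5l and Arpc5l over Arpc1b. The order was taken from these same 6 libraries, which fixed the direction of the steps before they were tested. An exact two-sided sign-flip test over the 6 libraries gave p = 0.03125 for each of the 3, the smallest it can give, and 0.0938 after adjustment over the 9 steps, so 0 of 9 steps passed 0.05. The count of steps with the same direction in every library was added after this was seen.

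In the other 6 steps the libraries disagreed, with exact p-values from 0.0625 to 0.594. Arpc5 was above Arpc1a in the order of the sham libraries and below it in that of the TBI libraries, with a mean log2 difference of 0.18 and an SD of 0.495 over the 6. With the longest coding transcript as the length, 3 of 10 genes kept their rank, Arpc2 stayed first and Arpc1b last, and Arpc3, whose longest coding transcript has 899 of its 2762 exonic bases, moved to rank 2. Arpc5l then stood at rank 7, below Actr3 in 3 of 6 libraries only, so the step between these genes depends on the length used.

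**Figure D4:**
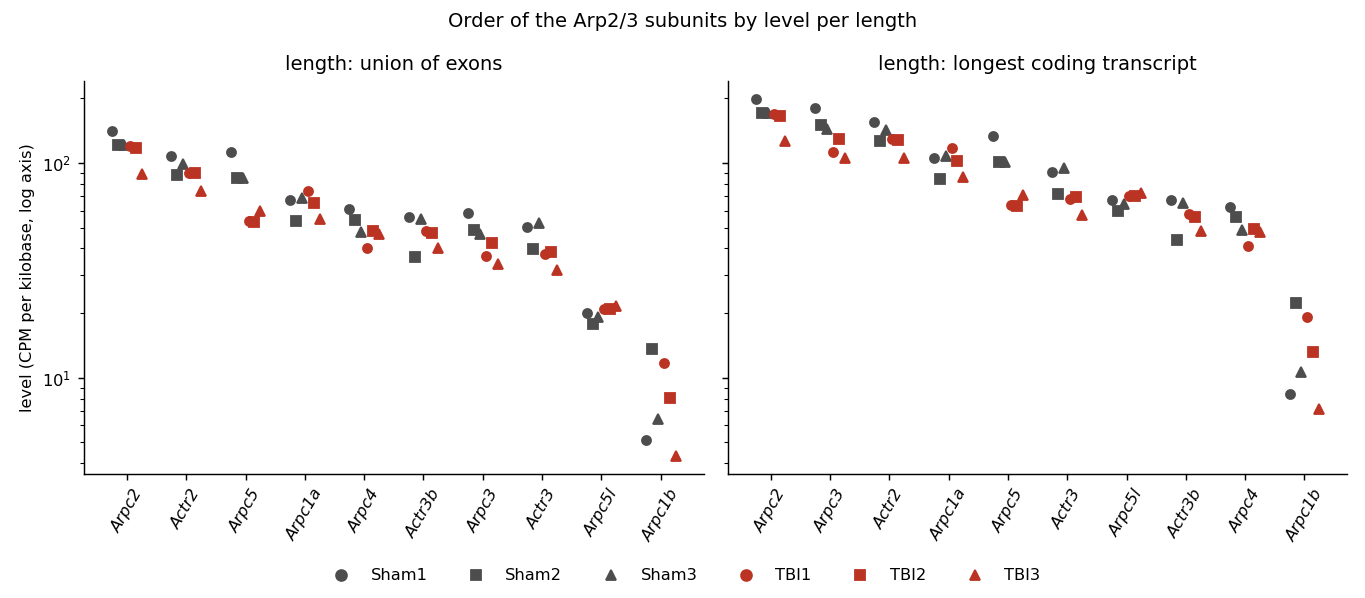
Level of each member in CPM per kilobase (log axis) in each library, ordered by the mean, with all exons as the length at left and the longest coding transcript at right. Arpc2 is at the top and Arpc1b at the bottom of both orders, and the genes between them change places, apart from Arpc1a.

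The genes whose pattern over the 6 libraries was most like that of Arpc5 were not members. Among 10806 genes with at least 10 CPM, the smallest root mean square differences in centred log2 CPM were 0.0513 for 6430548M08Rik, 0.13 for Nectin3, a cell adhesion gene, 0.15 for Srp14, a subunit of the signal recognition particle, 0.17 for Nktr and 0.175 for Slc4a7, a bicarbonate transporter. 6430548M08Rik measured 241, 195 and 189 CPM in sham and 113, 114 and 139 CPM in TBI, close to Arpc5 in every library. Their log2 fold changes were -0.77, -0.64, -0.62, -0.74 and -0.53. The member most like Arpc5 was Arpc3, at rank 34 with a difference of 0.214.

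Genes that act on the Arp2/3 complex or on actin were described through 12 lists of 134 genes, of which 131 were tested. Their fold changes were spread evenly, with 65 above and 66 below 0 and a median of -0.0029. Neither edgeR nor DESeq2 called any of them, and an unadjusted edgeR p under 0.05 was found for 4 of the 131 with a lower level, against 2.13% of all genes, and for 1 with a higher level, against 2.16%. In 10 of the 131 every TBI library was below sham, against 5.45% of all genes, and in 1 every TBI library was above, against 4.77%. Nothing is read from these counts, since differences between the lists and all genes were not tested. List medians also moved when 1 library was left out, and their lowest and highest values are given beside them.

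In the WAVE complex, which activates Arp2/3 downstream of Rac, 6 of 11 genes were below 0. The median was -0.066, and -0.15 without TBI1 to -0.0048 without Sham1, with log2 fold changes from -0.47 (SE 0.22) for Wasf1, the neuronal WAVE, to 0.24 for Nckap1l, its blood cell subunit. In the list of the WASP family and its partners 6 of 10 were below 0, with a median of -0.12 that ran from -0.14 without Sham1 or TBI1 to 0.062 without Sham2. Nck2, an adaptor that brings N-WASP to receptors, measured 55.5, 60.6 and 52.6 CPM in sham and 31.9, 43.5 and 33.5 CPM in TBI, with no overlap. Its log2 fold change was -0.63 (SE 0.155) with an edgeR p of 0.00537 before and 0.982 after adjustment.

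Wipf3, a WASP-interacting protein, measured 496, 292 and 315 CPM in sham and 224, 273 and 184 CPM in TBI, a log2 fold change of -0.70 (unadjusted p = 0.027). Wasl, which encodes N-WASP, measured 154, 128 and 145 CPM in sham and 113, 126 and 111 CPM in TBI, a log2 fold change of -0.29 (unadjusted p = 0.0473). In both genes the groups did not overlap, and neither passed after adjustment (edgeR adjusted p = 0.982). Fnbp1l, at 0.67 the highest of the list, rested on TBI1, with 147 CPM against 39.1 to 67.3 CPM in the other libraries.

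Among the other activators Cttn, which encodes the branch-stabilising protein cortactin, measured 177, 211 and 138 CPM in sham and 120, 136 and 120 CPM in TBI. Its log2 fold change was -0.49 (edgeR adjusted p = 0.982). The median of the 5 genes was 0.001, with Jmy highest at 0.071, and it became -0.22 without Sham3, -0.16 without TBI1 and at most 0.011, without Sham2. In the WASH complex, which acts on endosomes, the 5 genes had a median of 0.00043, which was -0.034 without TBI2 and 0.053 without Sham3. They lay between -0.049 for Washc5 and 0.37 for Washc2, which was at 166 CPM in TBI3 and 73.1 to 92.7 CPM elsewhere. Of the 10 genes that inhibit the complex or remove branches 6 were above 0, with a median of 0.07 that turned to -0.019 without TBI1 and -0.0089 without TBI3 and was 0.071 without TBI2. They lay between -0.31 for Coro1c and 0.78 for Gmfg, a gene of blood cells at 1.17 to 4.12 CPM.

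The 1 gene with a higher level and an unadjusted p under 0.05 was Rnd2. It measured 70.9, 87.6 and 93.7 CPM in sham and 108, 191 and 132 CPM in TBI, a log2 fold change of 0.77 (SE 0.231, edgeR adjusted p = 0.982). The 20 tested formins and other unbranched nucleators had a median of 0.23, with 14 above 0, from -0.34 for Diaph1 to 1.38 for Grid2ip. The median was 0.10 without Sham2 or without TBI3 and 0.35 without Sham3. The value of Grid2ip rested on 40.2 CPM in TBI3, the library with cerebellar markers, against 2.38 to 8.28 CPM elsewhere.

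Genes of the actin monomer pool were below 0 in 7 of 10, with a median of -0.16 (-0.22 without TBI1 or TBI2 to -0.077 without Sham2), from -0.34 for Tmsb4x to 0.16 for Tmsb10, both thymosins that bind monomers. Genes of dendritic spine actin were below 0 in 9 of 13, with a median of -0.17 (-0.24 without TBI1 to -0.10 without Sham1), from -0.52 for Kalrn to 0.36 for Ppp1r9a, which was at 281 CPM in TBI1 and 77.8 to 157 CPM elsewhere. Severing and turnover genes had a median of -0.037 (-0.093 without Sham3 to -0.019 without Sham2), from -0.36 for Wdr1 to 0.37 for Gsn. Capping genes had a median of -0.022 that was -0.061 without TBI2 and turned to 0.041 without TBI1, 0.023 without Sham2 and 0.022 without Sham3. They ran from -0.27 for Capg to 0.59 for Add1, which was at 371 CPM in TBI1, 261 CPM in TBI3 and 160 to 200 CPM elsewhere. Actin-related proteins outside the complex also had a median of -0.022 (-0.054 without TBI1 to -0.00074 without TBI3), from -0.18 for Actr6 to 0.26 for Actl6a.

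**Figure D5:**
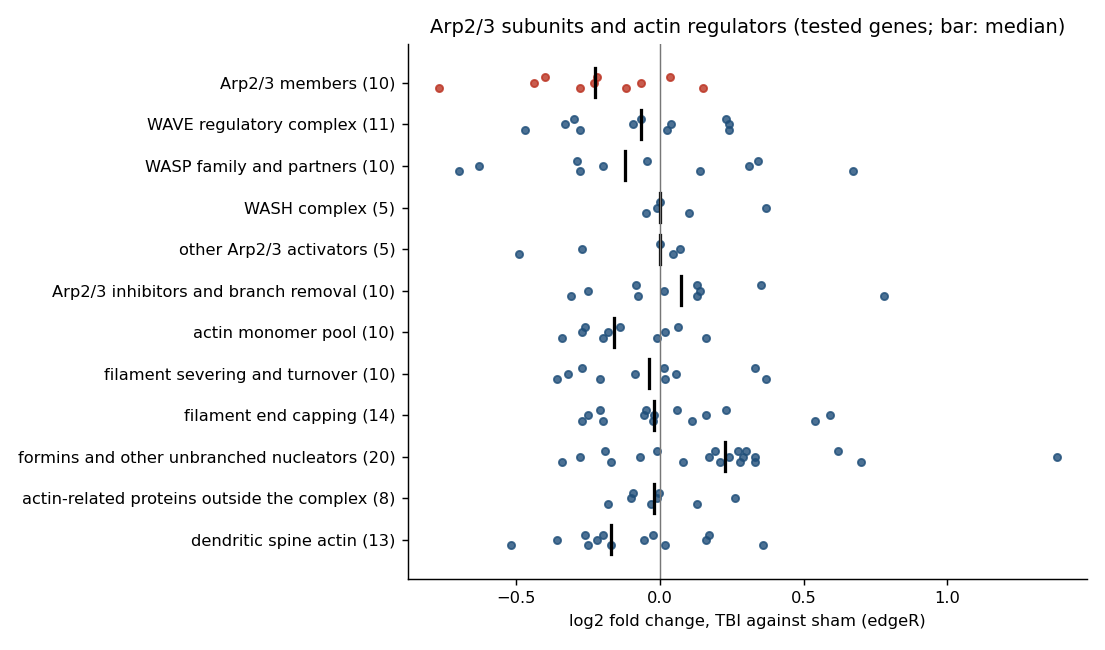
Log2 fold changes of TBI against sham from edgeR (horizontal axis) for the 10 members (red) and the tested genes of 11 of the 12 lists (blue), a point per gene and a bar at each median. The members' median is -0.22, and the medians of the 11 lists shown run from -0.17 to 0.23.

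The remaining marker lists gave the cell content beside these values. The summed level of 11 markers of endothelium and mural cells was 304 to 454 CPM in sham and 413 to 451 CPM in TBI, and that of 5 blood cell markers 126 to 416 and 117 to 601 CPM. The 8 thalamic markers summed to 66.2 to 327 CPM in sham and 96.2 to 392 CPM in TBI, and the 7 choroid plexus markers to 29.1 to 155 and 37.8 to 170 CPM. In each of these 4 lists the summed levels of the groups overlapped. Log2 fold changes were above 0 for 17 of 18 microglial markers (median 0.30), 9 of 10 of oligodendrocytes (0.38), 8 of 8 of the thalamus (0.60), 5 of 5 of blood cells (0.38), 8 of 11 of endothelium and mural cells (0.11) and 6 of 10 of astrocytes (0.12). They were above 0 for 2 of 7 choroid plexus markers (median -0.41) and 4 of 7 tested markers of infiltrating leukocytes (0.047). All 9 striatal markers (median 3.27) and all 6 tested cerebellar markers (6.45) were above 0, with summed levels that stood out in TBI1 and TBI3. Of all 18795 genes tested 9662 were above 0. The microglial sum was highest in TBI1 and lowest in TBI3, and the oligodendrocyte sum was low in Sham2 only. The part of these markers in the members' values was not tested.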

How the data were processed

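The files deposited by the authors list estimated counts, 1 whole number per gene and library, not normalized. They come from FastQC quality control, HISAT2 alignment (GRCm38) and StringTie quantification. Versions of these tools, the annotation release, strandedness and how coverage became counts are not given in the sources used here. The counts are estimates and not reads, so no counting error was derived. Identifiers were matched to symbols (52403 of 52550), loci and exons with GENCODE vM21.

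The quasi-likelihood test of edgeR 4.0.16 in R 4.3.3 was run across all genes kept by filterByExpr, after TMM scaling, with Benjamini-Hochberg adjustment. DESeq2 1.42.0 was an alternative; the study used this tool in another version. A standard error is the log2 fold change over the root of its F statistic. CPM used the TMM-scaled library totals. The code was tested on simulated counts, where a minimum of recovered changes was required only at a dispersion below that of these data. It therefore does not show the power of the test in these data. Groups were taken from the sample labels. Pairs of libraries within a group had 149 to 197 identical values among 18795 genes, against 137 to 220 between the groups, and were not duplicates.

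The members and lists were chosen with earlier results of these data known. The result of 1 of the 12 lists is not reported here. Genes were named by rule: all members, the lowest and highest gene of each list, list genes with an unadjusted p under 0.05, the 5 genes most like Arpc5, overlapping genes and the summed markers. Alternatives were library totals, upper-quartile factors, 2 other filters, robust dispersions, each library left out and the replicate number as a block. DESeq2 with libraries left out or with the block was added after seeing the data. Same-numbered libraries did not deviate together (r of -0.0996, -0.065 and 0.153 across genes).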

Additional observations from a re-analysis of the deposited data

How the results depend on the processing

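The count of DEGs was 0 with edgeR, 46 with DESeq2's defaults and 50 with DESeq2 on the genes kept by filterByExpr. In edgeR it was 0 to 1 with a library left out, where the 1 came without TBI1, and this count was not made with DESeq2. The members called were 0 with edgeR and 1, Arpc5, with both DESeq2 settings, and also with DESeq2 without Sham2, without Sham3 and with the replicate block, which were chosen after seeing the data. The log2 fold change of Arpc5 was -0.77 with both DESeq2 settings, -0.84 without Sham2, -0.85 without Sham3 and -0.76 with the block in DESeq2, where its adjusted p was 0.0508, 0.0208, 0.0228, 0.0423 and 0.0904. The DESeq2 adjusted p was 0.181 without Sham1, 0.169 without TBI1, 0.113 without TBI2 and 0.113 without TBI3, and over 21 alternatives in both tools it ran from 0.0208 to 1. In edgeR the value of Arpc5 was -0.84 to -0.61 with a library left out and -0.75 with the replicate block, where the numbers do not pair the samples. The number of members with TBI below sham in every library was 4, but 2 with upper-quartile factors and 2 to 6 over the alternatives. With a library left out, Arpc1a ranged from -0.076 without TBI1 to 0.14 without TBI3, and was -0.067 without Sham2. Arpc1b ranged from -0.44 without TBI1 to 0.47 without Sham2, and was 0.23 without TBI3, and the cause was not tested. The other 8 members kept their direction in all 14 alternatives of edgeR and DESeq2, and the members' median ran from -0.29 without TBI1 to -0.13 without TBI3. The step from Actr3 to Arpc5l in the level order held in 6 of 6 libraries with all exons and in 3 of 6 with the longest coding transcript. The number of neighbouring steps with 1 direction in every library was 3, and 5 in sham and 6 in TBI alone, where only 3 libraries had to agree. The difference in the share of Arpc5 was -15.3 percentage points with the longest coding transcript. Of 168 list medians under an alternative 2 moved by more than the spread between libraries, those of the other Arp2/3 activators to -0.22 without Sham3 and -0.16 without TBI1, and the cause was not tested.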
